A study of Mus musculus with 18 samples.

Results

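S100 genes encode small calcium-binding proteins of which several are among the most abundant cytosolic proteins of neutrophils. The rule took the rows for 6 of them by symbol, S100a8, S100a9, S100a6, S100a10, S100a11 and S100a4. It found 5 among the 17941 gene symbols of the count table, and S100a4 is not analysed here. RNA sequencing measured them in splenic neutrophils of female NZBWF1/J mice, the hybrid offspring of NZB and NZW parents, which spontaneously acquire a disease that resembles lupus. The 3 groups were ages of 14, 20 and 26 weeks, described by the submitters as stages of disease, with 6 biological replicates each and no treatment in any group. All cells were sorted directly from spleen as DAPI negative singlets, positive for Ly6G, Ly6B and CD11b and at an intermediate level of Ly6C. The labels do not say whether a replicate was 1 mouse or a pool, so p-values measure only the spread between these libraries. There was no other strain and no disease-free group, so age and disease stage cannot be told apart.

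S100A8 and S100A9 form a heterodimer, calprotectin, that binds calcium and, outside the cell, sequesters zinc and manganese away from microbes. Released calprotectin also acts as an alarmin through Toll-like receptor 4 (TLR4) and the receptor RAGE. S100A6 (calcyclin) and S100A11 (calgizzarin) are found in many cell types, where S100A11 pairs with annexin A1, and S100A10 (p11) pairs with annexin A2. In neutrophils the transcripts of the calprotectin subunits accumulate as precursors mature in the bone marrow.

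The 5 genes lie on chromosome 3 in the GRCm38 build (GENCODE M21 gene models), and none overlaps another annotated gene. S100a6 (ENSMUSG00000001025) spans 90612882 to 90624181 on the plus strand. S100a8 (ENSMUSG00000056054) spans 90668978 to 90670035 on the plus strand. S100a9 (ENSMUSG00000056071) spans 90692632 to 90695721 on the minus strand, so the 2 calprotectin genes are neighbours on opposite strands. S100a11 (ENSMUSG00000027907) at 93520488 to 93526287 and S100a10 (ENSMUSG00000041959) at 93555080 to 93564643, both on the plus strand, sit apart from them. S100a11 has processed pseudogenes, so some of its reads could have been assigned elsewhere. Gm12854 matched its transcript at 98.99% over 297 bases and Gm7665 at 98.653%, but these rows held only 133 and 51 counts in all 18 libraries, against 286930 for S100a11. No copy of at least 90% identity was found for the other 4 genes.

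Promoter sequence is shown for 3 genes to set the 2 calprotectin subunits, whose levels moved together, beside S100a11. The windows come from RefSeq on GRCm38.p6 and lie at chr3:90668821-90669070 (plus strand) for S100a8, chr3:90695716-90695971 (minus strand) for S100a9 and chr3:93520246-93520495 (plus strand) for S100a11. Capitals mark TATAAA in S100a8, TTGCTTAA (a match of TTGCNNAA, letters found in C/EBP sites) and TATAAA in S100a9, and the AP-1 letters TGAGTCA in S100a11.
S100a8: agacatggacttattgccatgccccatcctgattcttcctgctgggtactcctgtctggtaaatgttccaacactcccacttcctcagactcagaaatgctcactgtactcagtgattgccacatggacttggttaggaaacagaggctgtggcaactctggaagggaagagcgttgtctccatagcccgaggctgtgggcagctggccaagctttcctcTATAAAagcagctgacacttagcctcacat
S100a9: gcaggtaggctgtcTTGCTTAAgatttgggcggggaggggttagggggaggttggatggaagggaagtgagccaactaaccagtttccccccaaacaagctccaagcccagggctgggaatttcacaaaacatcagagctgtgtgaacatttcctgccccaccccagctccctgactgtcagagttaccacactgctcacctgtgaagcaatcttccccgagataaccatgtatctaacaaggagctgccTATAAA
S100a11: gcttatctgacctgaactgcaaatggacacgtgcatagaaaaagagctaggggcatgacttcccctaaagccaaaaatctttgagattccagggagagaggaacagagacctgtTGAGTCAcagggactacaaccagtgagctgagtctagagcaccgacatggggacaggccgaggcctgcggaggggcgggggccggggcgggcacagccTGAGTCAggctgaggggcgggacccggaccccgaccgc
Positions count from the RefSeq start of each window, with negative values before it. For S100a8 and S100a11 that start lies inside the GENCODE span given above, and so does the TATAAA of S100a8. TATAAA began at -30 in S100a8 and at 1 in S100a9, TTGCNNAA at -236 in S100a9, and TGAGTCA at -136 and -38 in S100a11. The S100a6 window held none of these 3 motifs. Windows were available for 5 of the 6 members (S100a10 is the other). That of S100a4, whose counts are not analysed here, held TATAAA at -31. The windows searched ran from 250 bases before the start to 50 after it. The stretches printed are parts of these. The motifs were chosen after the sequences were seen and were searched on both strands. They do not overlap each other. TATAAA occurred in 13.6% of the 32851 mouse windows, TTGCNNAA in 10.8% and TGAGTCA in 5.20%. A match is a description of the letters only.

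Libraries held 5546624 to 17256379 counts and detected 8119 to 13164 genes, and 10104 genes had enough counts to be tested. Levels are given in CPM, counts scaled to library size with TMM factors (a correction for library composition), and changes are fitted log2 ratios of the later over the earlier age ± SE. A gene was called where edgeR's quasi-likelihood test gave a Benjamini-Hochberg adjusted p under 0.05 over all tested genes. Of the gate genes, Ly6g averaged 1245 ± 176 CPM at 14 weeks, 481 ± 216 CPM at 20 weeks and 2829 ± 1248 CPM at 26 weeks (SD, n = 6 each), and Itgam, which encodes CD11b, averaged 1972 ± 196, 1099 ± 237 and 1063 ± 379 CPM in the same order. No neutrophil marker was at 0 in any age. Of the 12 neutrophil markers, which include S100a8 and S100a9, 1 rose (Csf3r, 1.21 ± 0.30) and 9 fell at 20 against 14 weeks. At 26 against 14 weeks 6 rose and 3 fell (Mmp8, Mmp9 and Cxcr2), and at 26 against 20 weeks 8 rose and 1 fell (Csf3r, -1.70 ± 0.30). The shares of all tested genes called in either direction in these comparisons were 10.2%, 11% and 16%. Ly6c2, a gate gene for Ly6C, averaged 533 ± 26.4, 169 ± 75.2 and 863 ± 355 CPM at 14, 20 and 26 weeks. It fell at 20 against 14 weeks (-1.66 ± 0.28, edgeR adjusted p = 0.00102) and rose at 26 against 20 weeks (2.35 ± 0.28, edgeR adjusted p = 9.91e-05). Ly6c1 averaged at most 1.43 CPM at any age. The sum of these 4 gate genes ran from 3035 to 3987 CPM at 14 weeks, from 1224 to 2317 CPM at 20 weeks and from 2671 to 6278 CPM at 26 weeks. Replicate 3 of 20 weeks stood apart in detecting the fewest genes (8119), and values without it are given where a call of a member depends on it. Calls of genes other than the members were not checked without it.

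Calprotectin transcripts were lowest at 20 weeks and highest at 26 weeks. S100a8 ranged over 4082 to 5499 CPM at 14 weeks with a median of 4789, over 1275 to 2985 CPM at 20 weeks with a median of 1857, and over 7131 to 53817 CPM at 26 weeks with a median of 21613. The 3 ages did not overlap for S100a8, and the spread was widest at 26 weeks. S100a9 ranged over 8599 to 11698 CPM at 14 weeks with a median of 10864, over 2980 to 6785 CPM at 20 weeks with a median of 3268, and over 10563 to 55710 CPM at 26 weeks with a median of 26729. All S100a9 values at 20 weeks lay below those of the other ages, whereas 2 of the 26-week libraries lay inside the 14-week range. Together the 2 subunits made up 1.47 ± 0.166% of each 14-week library on average, 0.673 ± 0.239% of each 20-week library and 4.75 ± 2.92% of each 26-week library, with the largest share at 9.42%. In bulk RNA, fewer cells that make a transcript and less of it per cell cannot be told apart.

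**Figure D1:**
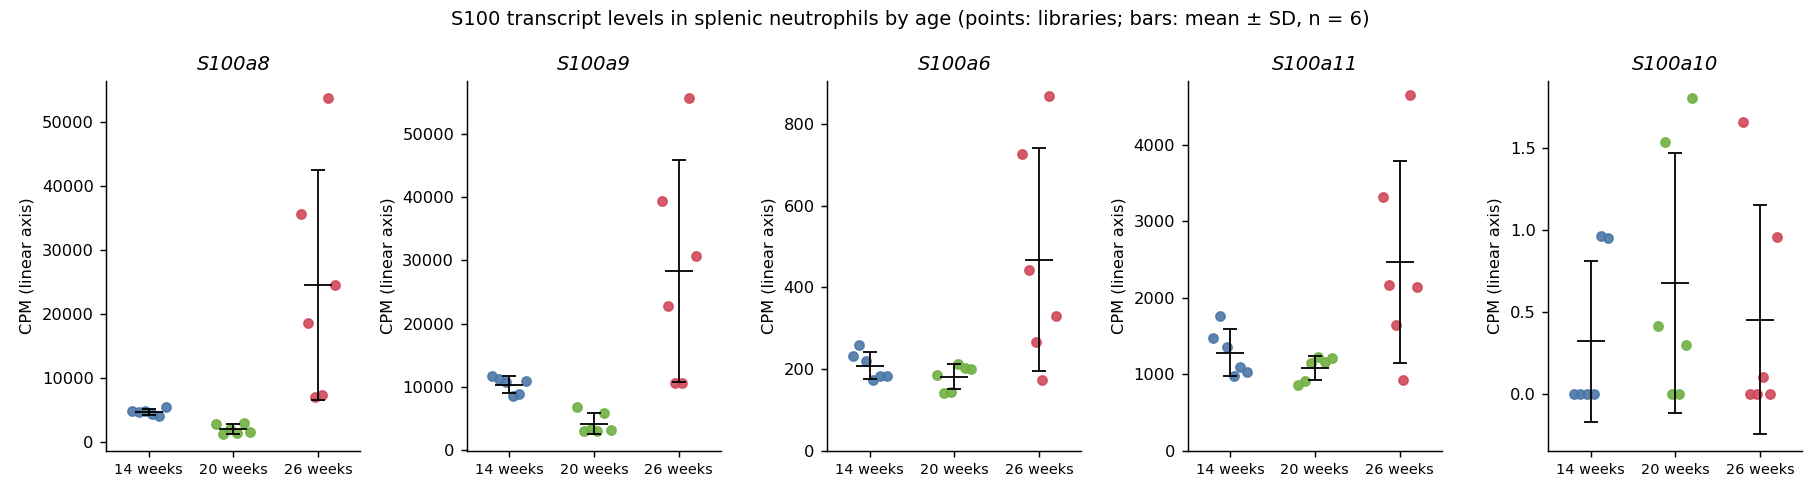
Levels of the 5 S100 genes in CPM (linear axes, a separate scale for each gene) by age, with 1 point per library and bars for the mean ± SD of 6 libraries. S100a8 and S100a9 were lowest at 20 weeks and highest and most spread at 26 weeks, and S100a10 stayed under 2 CPM in every library.

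Between 20 and 14 weeks both calprotectin subunits fell. S100a8 averaged 2046 ± 747 CPM at 20 weeks and 4716 ± 488 CPM at 14 weeks (SD, n = 6 each), a log2 change of -1.20 ± 0.38 (edgeR adjusted p = 0.0493). S100a9 averaged 4185 ± 1661 CPM at 20 weeks and 10344 ± 1301 CPM at 14 weeks, a log2 change of -1.31 ± 0.34 (edgeR adjusted p = 0.0173). In each case all 6 libraries of 20 weeks lay below all those of 14 weeks. Of the 4 members that could be tested, 2 were called, where 10.2% of all tested genes were called in either direction (4.93% higher and 5.27% lower) and 3.93% were lower without overlap. The S100a8 call sat at the threshold: it was lost in 13 of 18 fits with a single library omitted (adjusted p at most 0.106, and 0.0643 without replicate 3 of 20 weeks) and under both other scalings (0.0586 and 0.0616) and with limma-voom (0.0634), whereas S100a9 kept its call in all of these. The monocyte and macrophage markers moved the other way. Their sum over the 11 genes in the table ran from 562 to 1176 CPM at 20 weeks and from 200 to 513 CPM at 14 weeks, and the 3 that could be tested (Adgre1, Cd68 and Csf1r) all rose at 20 weeks. Most of the 20-week sum, which averaged 888 CPM, came from these 3, with Csf1r at 471, Cd68 at 272 and Adgre1 at 143 CPM. Ccr2, Cx3cr1, C1qa, C1qb and Ms4a6c were at 0 in all 14-week libraries. At 20 weeks none of the list was at 0 in all libraries, but those 5 had medians of 0 and averaged at most 0.920 CPM. The plasma cell list summed to 17.9 to 1708 CPM at 20 weeks and 0 to 13.8 CPM at 14 weeks, and both of its tested genes rose. The eosinophil list summed to 32.5 to 76.95 CPM at 20 weeks and 5.83 to 20.7 CPM at 14 weeks, and 1 of its 2 tested genes rose (Ccr3, 2.69 ± 0.75, edgeR adjusted p = 0.0262). Prg2 and Il5ra of that list were at 0 in all 20-week libraries. The basophil and mast cell list, with no gene that could be tested, summed to 0 to 25.8 CPM at 20 weeks and 0 to 2.99 CPM at 14 weeks. The part of these cells in the result was not tested.

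Between 26 and 14 weeks all 4 tested members rose, with the largest log2 change in S100a8. S100a8 averaged 24514 ± 17964 CPM at 26 weeks and 4716 ± 488 CPM at 14 weeks, a 5.20-fold difference (log2 2.38 ± 0.40, edgeR adjusted p = 0.00155), and every 26-week library exceeded every 14-week library. S100a9 averaged 28294 ± 17547 CPM at 26 weeks and 10344 ± 1301 CPM at 14 weeks (log2 1.45 ± 0.34, edgeR adjusted p = 0.00996), with 4 of 6 libraries above the 14-week median. In this comparison 11% of all tested genes were called in either direction (5.45% higher and 5.54% lower) and 2.9% were higher without overlap. Only S100a8 stayed called under a correction for gene length, at 1.68 (adjusted p = 0.0118), where S100a9 changed by 0.78 (adjusted p = 0.111) and the median of all tested genes moved by -0.09. The same held without replicates 1 and 5 of 26 weeks, the 2 libraries with the largest share of ribosomal RNA, at 1.63 for S100a8 (adjusted p = 0.0219) and 0.87 for S100a9 (adjusted p = 0.137). The immature neutrophil list of 8 genes summed to 281 to 584 CPM at 26 weeks and 153 to 368 CPM at 14 weeks, and 1 of its 4 tested genes rose (Fcnb, by 2.74 ± 0.54, edgeR adjusted p = 0.00389). Most of the 26-week sum, which averaged 443 CPM, came from Cebpe (287 CPM) and Fcnb (142 CPM). Elane and Ctsg were at 0 in all 14-week libraries. No gene of that list was at 0 throughout 26 weeks, but Elane and Ctsg averaged only 0.227 and 0.336 CPM there, with medians of 0. Mpo averaged 0.0142 CPM at 14 weeks and 0.0698 CPM at 26 weeks, and Prtn3 0.208 and 0.168 CPM. The monocyte and macrophage list summed to 213 to 515 CPM at 26 weeks and 200 to 513 CPM at 14 weeks, with 0 of its 3 tested genes called. The plasma cell list summed to 1.98 to 479 CPM at 26 weeks and 0 to 13.8 CPM at 14 weeks. The part of these cells in the result was not tested.

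Between 26 and 20 weeks all 4 tested members rose as well. S100a8 averaged 24514 ± 17964 CPM at 26 weeks and 2046 ± 747 CPM at 20 weeks, an 11.98-fold difference (log2 3.58 ± 0.42, edgeR adjusted p = 8.67e-05). S100a9 averaged 28294 ± 17547 CPM at 26 weeks and 4185 ± 1661 CPM at 20 weeks, a 6.76-fold difference (log2 2.76 ± 0.36, edgeR adjusted p = 0.000124). Neither gene's 26-week and 20-week libraries overlapped. In this comparison 16% of all tested genes were called in either direction (8.03% higher and 7.98% lower) and 3.69% were higher without overlap. S100a8 and S100a9 kept these calls in every alternative fit, at 2.86 and 2.10 with the gene length correction, which moved the median of all tested genes by -0.31, and at 2.84 and 2.18 without replicates 1 and 5 of 26 weeks. The monocyte and macrophage list summed to 213 to 515 CPM at 26 weeks and 562 to 1176 CPM at 20 weeks, and its 3 tested genes all fell. The plasma cell list summed to 1.98 to 479 CPM at 26 weeks and 17.9 to 1708 CPM at 20 weeks, and 1 of its 2 tested genes fell (Jchain, -4.03 ± 1.14, edgeR adjusted p = 0.0199). The T cell list summed to 93.4 to 382 CPM at 26 weeks and 49.99 to 102 CPM at 20 weeks, and 1 of its 3 tested genes rose (Cd3d, 1.51 ± 0.29, edgeR adjusted p = 0.00159). Nearly all of this sum was Cd3d, which averaged 200 CPM at 26 weeks and 70.4 CPM at 20 weeks. Cd3e, Cd3g, Trac and Cd8a averaged at most 2.68 CPM at either age, and Cd3e and Cd8a were at 0 in all 20-week libraries. The erythroid list, with no gene that could be tested, summed to 0.227 to 213 CPM at 26 weeks (median 7.62) and 0 to 6.49 CPM at 20 weeks (median 0.380). The part of these cells in the result was not tested.

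S100a6 and S100a11 were highest at 26 weeks on average, and their levels at 14 and 20 weeks differed by less than the spread between libraries. S100a6 ranged over 174 to 260 CPM at 14 weeks with a median of 202, over 143 to 213 CPM at 20 weeks with a median of 192, and over 173 to 869 CPM at 26 weeks with a median of 387. S100a11 ranged over 981 to 1761 CPM at 14 weeks with a median of 1221, over 863 to 1230 CPM at 20 weeks with a median of 1153, and over 928 to 4640 CPM at 26 weeks with a median of 2151. For both genes the 3 ages overlapped, and replicate 4 of 26 weeks lay below the lowest 14-week library. Neither was called between 20 and 14 weeks, with log2 changes of -0.20 ± 0.28 for S100a6 (edgeR adjusted p = 0.743) and -0.24 ± 0.27 for S100a11 (edgeR adjusted p = 0.676).

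At 26 weeks S100a6 averaged 468 ± 274 CPM, against 209 ± 34.1 CPM at 14 weeks (log2 1.16 ± 0.29, edgeR adjusted p = 0.0131) and 181 ± 30.6 CPM at 20 weeks (log2 1.37 ± 0.29, edgeR adjusted p = 0.00308). S100a11 averaged 2472 ± 1319 CPM at 26 weeks, against 1281 ± 304 CPM at 14 weeks (log2 0.95 ± 0.27, edgeR adjusted p = 0.0285) and 1087 ± 156 CPM at 20 weeks (log2 1.18 ± 0.27, edgeR adjusted p = 0.00528). In each comparison 5 of the 6 libraries of 26 weeks exceeded the median of the younger age. Relative to 14 weeks both calls were lost with the gene length correction, at 0.56 for S100a6 (adjusted p = 0.229) and 0.30 for S100a11 (adjusted p = 0.561). They were also lost without replicates 1 and 5 of 26 weeks, at 0.55 (adjusted p = 0.187) and 0.44 (adjusted p = 0.353). The S100a11 call against 14 weeks was further lost in 6 of 18 fits without 1 library: replicates 3, 4, 5 or 6 of 14 weeks (adjusted p = 0.0511 to 0.0668), and replicate 1 (0.0728) or 5 (0.0846) of 26 weeks. Against 20 weeks, S100a6 stayed called at 0.74 with the length correction (adjusted p = 0.0455) and at 0.75 without the 2 libraries (adjusted p = 0.0372), and S100a11 did not, at 0.51 (adjusted p = 0.134) and 0.67 (adjusted p = 0.069).

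**Figure D2:**
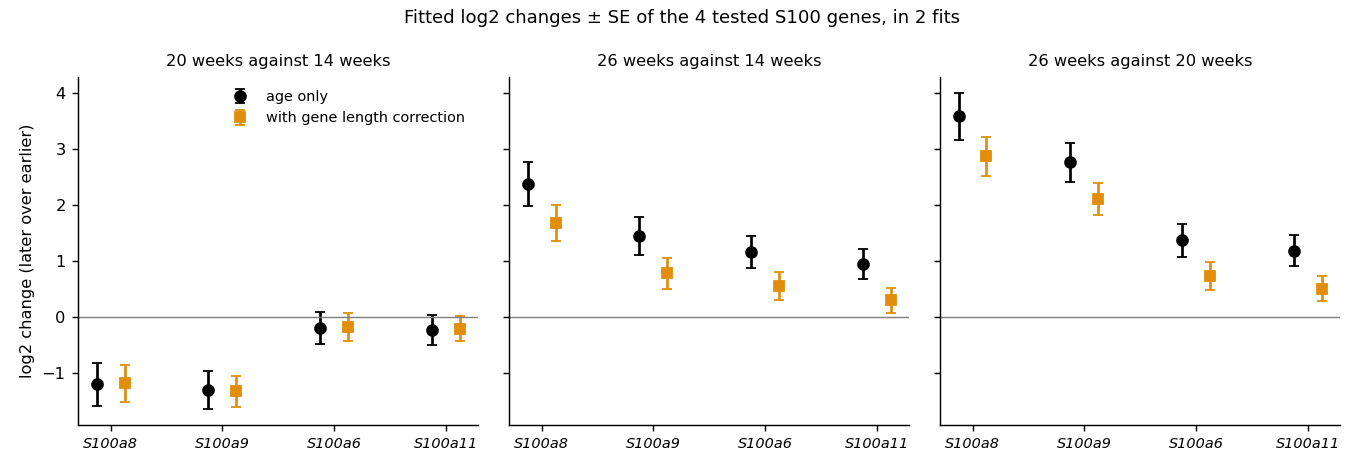
Fitted log2 changes ± SE of the 4 tested S100 genes in the 3 comparisons of ages (later over earlier), from the fit with age only and from the fit with a gene length correction. With the correction every 26-week change was smaller and none changed sign, and S100a8 remained the largest.

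S100a10 had almost no counts, 92 in all 18 libraries, and none in 9 of them. There were 0 to 11 counts in a library at 14 weeks, 0 to 21 at 20 weeks and 0 to 14 at 26 weeks. A count of 0 allows up to 3 counts, which is 0.170 to 0.629 CPM in the 9 libraries concerned (counting error only). It did not pass the filter on low counts. Whether the gene models used or the handling of reads with several matches lowered this count could not be checked from the count table, so a low count is not shown to be a low level. With no filter its log2 changes were 1.05 ± 1.66 between 20 and 14 weeks, 0.52 ± 1.65 between 26 and 14 weeks and -0.53 ± 1.65 between 26 and 20 weeks (edgeR adjusted p = 0.792, 0.947 and 0.898). Anxa2, the gene of its annexin partner, stood at 2730 ± 333 CPM at 14 weeks, 2057 ± 146 CPM at 20 weeks and 2207 ± 256 CPM at 26 weeks.

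Between genes, levels were compared per kilobase of the first annotated protein-coding transcript of each. S100a9 was highest at 14 weeks, at 20203 ± 2541 CPM per kb, ahead of S100a8 at 9705 ± 1003. At 20 weeks S100a9 averaged 8174 ± 3244 CPM per kb and S100a8 4210 ± 1536. S100a9 exceeded S100a8 per kb in all 6 libraries at 14 weeks and at 20 weeks, and in 5 of 6 at 26 weeks. At 26 weeks S100a9 averaged 55262 ± 34271 and S100a8 50440 ± 36964 CPM per kb. S100a11 followed at 2506 ± 596, 2128 ± 306 and 4837 ± 2580 CPM per kb at the 3 ages in order, then S100a6 at 286 ± 46.6, 248 ± 41.9 and 640 ± 374. S100a10 stayed under 1 CPM per kb on average at each age.

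The balance of the 2 calprotectin subunits shifted towards S100a8 at 26 weeks. The ratio of S100a8 to S100a9 counts within a library does not depend on how libraries are scaled. It averaged 0.458 ± 0.0384 at 14 weeks, 0.495 ± 0.0731 at 20 weeks and 0.809 ± 0.115 at 26 weeks (SD, n = 6 each). All 26-week libraries (0.675 to 0.966) lay above all libraries of 14 weeks (0.412 to 0.503) and 20 weeks (0.421 to 0.618). The difference in mean log2 ratio was 0.81 between 26 and 14 weeks and 0.71 between 26 and 20 weeks. Each had p = 0.00216 by an exact two-sided permutation test over every arrangement of 6 against 6 libraries, the smallest it can give, and adjusted p = 0.00974 over 9 ratio tests. Between 20 and 14 weeks it was 0.10 (exact permutation adjusted p = 0.497). The first annotated transcripts have 486 bases for S100a8 and 512 for S100a9, and all annotated exons together cover 694 and 522 bases. Replicates 3 and 4 of 26 weeks, with the lowest ribosomal RNA shares of that age (0.0698% and 0.0466%), had the lowest ratios of the age, 0.675 and 0.689. Replicates 5 and 1, with the highest ribosomal RNA shares (0.441% and 0.240%), had the highest ratios, 0.966 and 0.903. The part of this measure in the ratio was not tested.

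**Figure D3:**
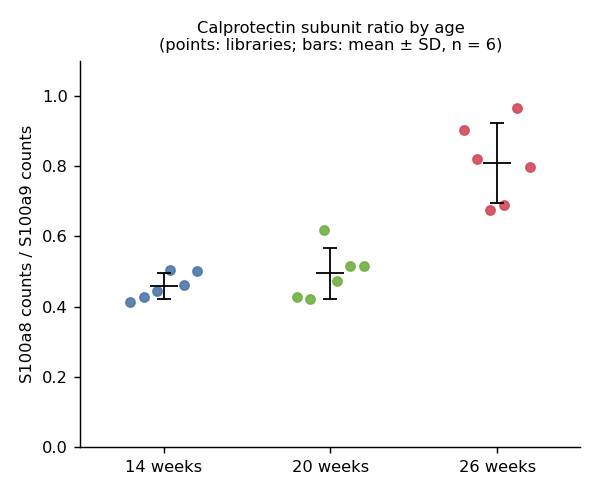
Ratio of S100a8 to S100a9 counts in each library by age (linear axis starting at 0), with bars for the mean ± SD of 6 libraries. The 26-week libraries sit between 0.675 and 0.966, above every library of 14 and 20 weeks.

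The annexin ratios gave no called difference. S100a11 to Anxa1 counts stood at 0.0692 ± 0.0277 at 14 weeks, 0.117 ± 0.0526 at 20 weeks and 0.123 ± 0.0757 at 26 weeks. The log2 differences were 0.72 between 20 and 14 weeks, 0.72 between 26 and 14 weeks and 0.00 between 26 and 20 weeks (exact permutation adjusted p = 0.221, 0.244 and 0.998). For S100a10 to Anxa2 they were 1.74, 0.88 and -0.86 in the same order (exact permutation adjusted p = 0.401, 0.592 and 0.592), and these rest on the few S100a10 counts.

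The 26-week libraries differed widely among themselves, and those with the most calprotectin transcript also had the largest values of 2 other measures. Ribosomal RNA rows held 0.0233 ± 0.00237%, 0.0284 ± 0.0145% and 0.183 ± 0.145% of counts at the 3 ages in order, with 0.441% in replicate 5 and 0.240% in replicate 1 of 26 weeks. Genes other than the members with under 1000 bases of exon took 2.37 ± 0.166%, 2.38 ± 0.238% and 4.28 ± 1.56% at the 3 ages in order. At 26 weeks that short-gene share was 6.61% in replicate 5 and 5.34% in replicate 1, which also had the most S100a8 (53817 and 35596 CPM). It was 2.91% in replicate 3 and 2.36% in replicate 4, which had the least (7131 and 7314 CPM). Replicates 3 and 4 lay above every 14-week library for S100a8, and for S100a9 they lay inside the 14-week range (10563 and 10611 CPM). Their ribosomal RNA shares (0.0698% and 0.0466%) also lay above every 14-week library, where the largest was 0.0262%. The short-gene share of replicate 3 lay above the 14-week maximum of 2.56%, and that of replicate 4 lay inside the 14-week range. The part of these measures in the results was not tested.

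**Figure D4:**
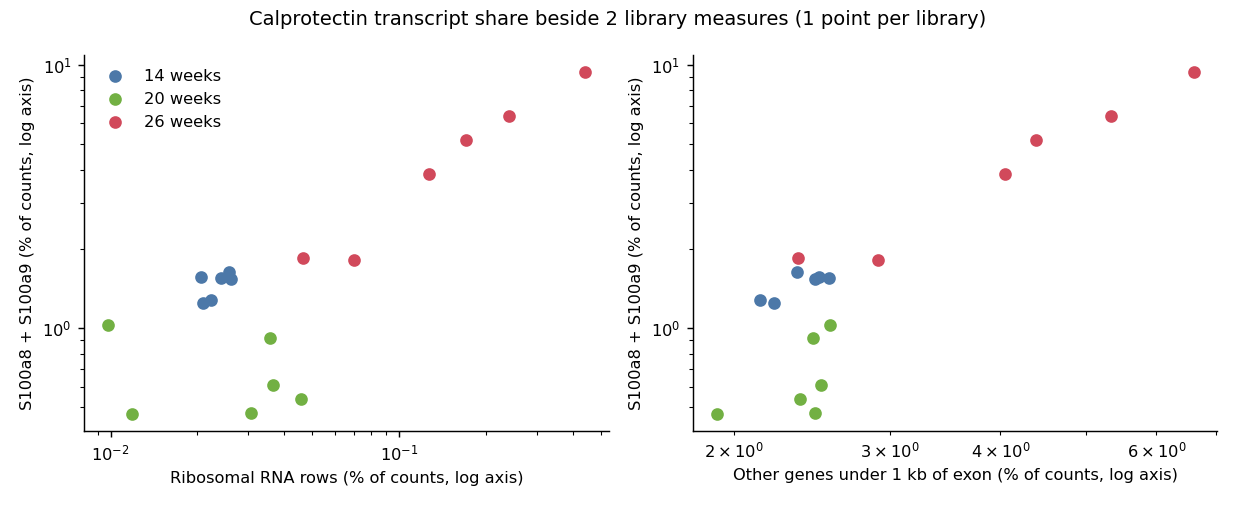
Share of counts on S100a8 and S100a9 together, against the share on ribosomal RNA rows (left) and on other genes with under 1 kb of exon (right), all in % of counts on log axes, with 1 point per library. Within 26 weeks the calprotectin share runs up to 9.42% in the library with the largest values on both other axes, and the 14-week libraries stay within 1.25 to 1.64%.

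Among the 6 libraries of 26 weeks, log2 S100a8 and the ribosomal RNA share had a Pearson r of 0.909 (exact permutation p = 0.00278, adjusted p = 0.00833 over 6 relations) and a Spearman rho of 0.943 (exact permutation p = 0.0167, adjusted p = 0.05). Without the 2 libraries farthest from the median r was 0.963, and the call was lost without replicate 3 (adjusted p = 0.0833) or 4 (adjusted p = 0.0979). At 14 weeks r was 0.678 (exact permutation p = 0.133, adjusted p = 0.16; without the 2 farthest 0.342). Its rho was 0.657 (exact permutation p = 0.175, adjusted p = 0.21). At 20 weeks r was -0.0210 (exact permutation p and adjusted p = 0.958), rho was 0.0857 (exact permutation p and adjusted p = 0.919) and r without the 2 farthest was 0.654.

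S100a8 and S100a9 varied together most closely among the libraries of 26 weeks, and their relation was not called at 14 weeks. At 26 weeks Pearson r was 0.999 (exact permutation p = 0.00139, adjusted p = 0.00833) and Spearman rho 1 (exact permutation p = 0.00278, adjusted p = 0.0167), and r was 0.996 without the 2 farthest libraries. At 20 weeks r was 0.922 (exact permutation p = 0.00694, adjusted p = 0.0139), rho 0.886 (exact permutation p = 0.0333, adjusted p = 0.0667) and r without the 2 farthest 0.953. The call at 20 weeks was lost without replicate 2, 3, 4 or 6, with r from 0.894 to 0.970 over the 6 omissions (exact permutation adjusted p up to 0.1). At 14 weeks r was 0.769 (exact permutation p = 0.0653, adjusted p = 0.0979), rho 0.657 (exact permutation p = 0.175, adjusted p = 0.21) and r without the 2 farthest 0.973.

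Over all 18 libraries the members fell into 2 pairs by likeness of pattern, described without a test because the ages and the library measures are shared. The Pearson r of log2 CPM was 0.983 between S100a8 and S100a9 and 0.966 between S100a6 and S100a11, against 0.812 to 0.878 between genes of different pairs. Among 4226 other well expressed genes, the 3 most like S100a8 were Wfdc21 (0.993), a whey acidic protein family gene, AA467197 (0.985) and Pglyrp1 (0.978), which encodes a peptidoglycan recognition protein of neutrophil granules. For S100a9 they were Pglyrp1 (0.985), Wfdc21 (0.985) and Prdx5 (0.981), which encodes a peroxiredoxin. For S100a6 they were Fis1 (0.972), a mitochondrial fission gene, Cd52 (0.967), which encodes a small surface glycoprotein, and Sh3bgrl3 (0.960). For S100a11 they were Cd52 (0.961), Tmsb4x (0.960), which encodes the actin-binding thymosin beta 4, and Tceb2 (0.954), which encodes elongin B.

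Among 10 other S100 family genes and S100pbp, which encodes a protein that binds S100P and is itself no S100 protein, 8 had a row and 5 could be tested, and S100a13 alone was called. S100a13 averaged 34.2 ± 19.0 CPM at 26 weeks, against 12.2 ± 2.90 CPM at 14 weeks (log2 1.48 ± 0.47, edgeR adjusted p = 0.0494) and 6.13 ± 5.09 CPM at 20 weeks (log2 2.47 ± 0.49, edgeR adjusted p = 0.00205). Its change between 20 and 14 weeks was -0.99 ± 0.47 (edgeR adjusted p = 0.217). The S100a13 call against 14 weeks sat at the threshold, and it was not checked in the alternative fits. The other 4 were S100a1, S100a3, S100a7a and S100pbp, which had under 800 counts each over the 18 libraries. The median log2 change of the 5 was 0.17 between 20 and 14 weeks, 0.87 between 26 and 14 weeks and 1.52 between 26 and 20 weeks. Over all tested genes it was -0.02, 0.04 and 0.05, and 10.2%, 11% and 16% of them were called.

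Annexins and other intracellular partners of S100 proteins were followed as a list of 14 genes, all of them tested. Of these, 0 rose and 4 fell between 20 and 14 weeks, 1 rose and 1 fell between 26 and 14 weeks, and 1 rose and 2 fell between 26 and 20 weeks. The shares of all tested genes called in these comparisons were 10.2%, 11% and 16%. The median log2 changes of the list were -0.25, -0.09 and 0.42 in the same order. Each of the 5 annexins was called in at least 1 comparison. Anxa1, the annexin that pairs with S100A11, averaged 19533 ± 3597 CPM at 14 weeks, 10568 ± 3623 CPM at 20 weeks and 20544 ± 3180 CPM at 26 weeks. It fell at 20 against 14 weeks (-0.89 ± 0.20, edgeR adjusted p = 0.00638) and rose at 26 against 20 weeks (0.96 ± 0.20, edgeR adjusted p = 0.0025), and its change at 26 against 14 weeks was 0.07 ± 0.19 (edgeR adjusted p = 0.886). Anxa2 fell by 0.41 ± 0.11 at 20 against 14 weeks (edgeR adjusted p = 0.0204). Anxa5, which binds phosphatidylserine, fell by 0.72 ± 0.16 and Myh9, the non-muscle myosin heavy chain that S100 proteins bind, by 1.14 ± 0.30 in the same comparison. Anxa11 fell by 0.89 ± 0.20 and the tubulin gene Tuba1b rose by 2.52 ± 0.49 between 26 and 14 weeks. Tuba1b was scarce, at 11.8 ± 3.41 CPM at 26 weeks and 2.05 ± 1.69 CPM at 14 weeks. Anxa6 fell by 0.74 ± 0.22 and Mapk14, the p38 kinase, by 0.60 ± 0.17 between 26 and 20 weeks.

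Among tested genes for the receptors and adaptors that extracellular calprotectin uses, Tlr4, Myd88, Cd14, Cd33 and Emb averaged highest at 20 weeks, and Bsg and Ly96 at 26 weeks. The ligand transcripts were lowest at 20 weeks and highest at 26 weeks. Tlr4 averaged 67.7 ± 13.4 CPM at 14 weeks, 154 ± 50.2 CPM at 20 weeks and 44.5 ± 19.5 CPM at 26 weeks. It rose at 20 against 14 weeks (1.19 ± 0.27, edgeR adjusted p = 0.00774) and fell at 26 against 20 weeks (-1.79 ± 0.28, edgeR adjusted p = 0.000423). Its adaptor gene Myd88 rose by 0.83 ± 0.17 (edgeR adjusted p = 0.00447) and fell by 0.75 ± 0.17 (edgeR adjusted p = 0.00603) in these comparisons. Cd14, the TLR4 co-receptor, rose by 0.77 ± 0.23 at 20 against 14 weeks (edgeR adjusted p = 0.0361) and changed by -0.30 ± 0.23 at 26 against 20 weeks (edgeR adjusted p = 0.42). Ly96, which encodes MD-2, was not called in any comparison. Bsg (basigin, a receptor for S100A9) rose at 26 weeks, by 0.69 ± 0.17 against 14 weeks and by 0.51 ± 0.17 against 20 weeks (edgeR adjusted p = 0.0127 and 0.0459). Cd33 (-0.70 ± 0.15) and Emb, which encodes embigin (-0.57 ± 0.18), fell at 26 against 20 weeks. Of the 10 genes, 9 had a row and 7 could be tested. Of these, 3 rose and 0 fell at 20 against 14 weeks, 1 rose and 0 fell at 26 against 14 weeks, and 1 rose and 4 fell at 26 against 20 weeks, with medians of 0.41, 0.09 and -0.57, where 10.2%, 11% and 16% of all tested genes were called. Monocytes and macrophages also use Tlr4, Cd14 and Myd88, and their marker sum was highest at 20 weeks (562 to 1176 CPM). Their part in these changes was not tested.

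Transcription factors known to act on myeloid S100 genes formed a list of 12 genes, all of them tested. Of these, 1 rose and 1 fell between 20 and 14 weeks, 0 rose and 2 fell between 26 and 14 weeks, and 1 rose and 3 fell between 26 and 20 weeks, with medians of 0.02, 0.12 and -0.14, where 10.2%, 11% and 16% of all tested genes were called. Cebpa, Cebpb, Cebpd and Spi1 (PU.1), factors of myeloid differentiation, were not called in any comparison. Cebpe, which drives late granulocyte maturation, averaged 207 ± 61.7 CPM at 14 weeks, 127 ± 74.8 CPM at 20 weeks and 287 ± 67.2 CPM at 26 weeks, and rose at 26 against 20 weeks (1.18 ± 0.29, edgeR adjusted p = 0.00874). Stat3 fell at 26 weeks, by 0.58 ± 0.15 against 14 weeks and by 0.80 ± 0.15 against 20 weeks (edgeR adjusted p = 0.0143 and 0.00119). Hif1a fell by 1.25 ± 0.33 against 14 weeks and by 1.02 ± 0.33 against 20 weeks (edgeR adjusted p = 0.0192 and 0.0395). The AP-1 gene Fos rose by 1.77 ± 0.36 at 20 against 14 weeks and fell by 1.32 ± 0.36 at 26 against 20 weeks (edgeR adjusted p = 0.00411 and 0.0162), and Klf5 fell by 0.84 ± 0.22 at 20 against 14 weeks (edgeR adjusted p = 0.0184).

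Other genes known for abundant cytosolic and granule proteins of neutrophils were set beside the members. Of these, Stfa2, Stfa3 and BC100530 had low counts here, averaging at most 52.4 CPM at any age. As for S100a10, the handling of reads with several matches could not be checked, so these low counts are not shown to be low levels. Of 10 tested genes 0 rose and 6 fell between 20 and 14 weeks, 4 rose and 0 fell between 26 and 14 weeks, and 8 rose and 0 fell between 26 and 20 weeks, with medians of -1.16, 0.64 and 1.62, where 10.2%, 11% and 16% of all tested genes were called. Wfdc21 averaged 176 ± 21.5 CPM at 14 weeks, 72.04 ± 33.8 CPM at 20 weeks and 855 ± 610 CPM at 26 weeks, with log2 changes of -1.29 ± 0.40, 2.28 ± 0.42 and 3.57 ± 0.44 (edgeR adjusted p = 0.0482, 0.00253 and 9.91e-05). Lcn2, which encodes the siderophore-binding lipocalin 2, fell by 1.53 ± 0.26 at 20 against 14 weeks and rose by 1.09 ± 0.26 at 26 against 14 weeks and by 2.62 ± 0.27 at 26 against 20 weeks (edgeR adjusted p = 0.00112, 0.00984 and 3.47e-05). Camp, the cathelicidin gene, rose by 1.86 ± 0.38 at 26 against 14 weeks (edgeR adjusted p = 0.0051) and changed by -0.73 ± 0.37 at 20 against 14 weeks (edgeR adjusted p = 0.25). Ltf, which encodes lactoferrin, changed by -0.25 ± 0.29 between 26 and 14 weeks (edgeR adjusted p = 0.694), where S100a8 changed by 2.38 ± 0.40. The immature neutrophil list at 20 weeks summed to 81.2 to 326 CPM, and 3 of its 4 tested genes rose at 26 against 20 weeks (Cebpe, Fcnb and Top2a). Elane and Top2a were at 0 in all 6 libraries of 20 weeks, and averaged 0.227 and 5.84 CPM at 26 weeks. Prtn3 and Mpo went the other way, at 1.46 and 0.0985 CPM at 20 weeks against 0.168 and 0.0698 CPM at 26 weeks. Ctsg averaged 0.296 and 0.336 CPM at these 2 ages. The part of immature cells in these changes was not tested.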

How the data were processed

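Neutrophil RNA was measured in 18 libraries, 6 at each age, grouped by the sample titles. The deposited values are raw, whole-number counts of reads for each gene symbol. The submitters' processing notes name the build GRCm38.p4 and the tools HTSeq 0.6.1, STAR 2.4.2a, Trimmomatic 0.32, DESeq and DESeq2 1.12.3. The steps each tool did, the gene models and any use of strand are facts not given in the sources used here. Libraries were made with Nextera XT from 1 ng of cDNA and read from a single end, per the labels' protocols, a preparation sensitive to transcript length whose effect was not measured here. The smallest row total is 2.

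The tests on counts used R 4.3.3 and edgeR 4.0.16 (filterByExpr by age, scaling by TMM, a robust quasi-likelihood fit and its F test) in a joint fit of the 18 libraries by age, with Benjamini-Hochberg adjustment over the 10104 genes tested. The SE is the size of the log2 change over the square root of F. Ratios (0.5 added to each count) were tested by two-sided exact permutation over all arrangements of 6 against 6, adjusted over 9 tests. Correlations within an age used log2 CPM (prior count 2) and exact permutation over 720 orders, adjusted over 6. Named genes were the members, tested genes of the lists described and, for each member, the 3 tested genes of highest correlation whose mean log2 CPM was 4 or more. The promoter motifs and the pseudogene copies stand outside that rule and were chosen after the data were seen. The members and lists were chosen with earlier results of these data known. Symbols were placed with GENCODE M21 (16809 directly, 454 through RefSeq synonyms, 678 not matched).

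Alternatives were RLE and upper quartile factors, TMM without the members, no filter, a filter of 10 CPM in 6 libraries, DESeq2 1.42.0, limma-voom (limma 3.58.1) with quality weights, only the 2 ages compared, a replicate block, a loess correction for exon length per library (which also rescales each library), each library left out and, chosen after seeing the data, replicates 1 and 5 of 26 weeks left out together. From the alternative fits, single-gene results were read for the members only, so calls of the other named genes were not checked in them. The main fit was tested on simulated counts. The labels give no run or date, so no batch could be entered. The counts carry no molecular identifiers, and floors of 3 counts cover counting error only.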

Additional observations from a re-analysis of the deposited data

How the results depend on the processing

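No tested member changed direction between ages under any alternative fit. The call of S100a8 between 20 and 14 weeks depended on scaling and tool, with 1 member called in place of 2 under RLE factors, upper quartile factors and limma-voom (S100a8 adjusted p = 0.0586, 0.0616 and 0.0634) and 1 to 2 members called when 1 library was left out. Between 26 and 14 weeks 1 member was called in place of 4 with the length correction and without replicates 1 and 5 of 26 weeks. The length correction moved the median of all tested genes by 0.22 (20 against 14 weeks), -0.09 (26 against 14 weeks) and -0.31 (26 against 20 weeks), and limma-voom and the replicate block moved it by 0.14 and 0.12 in the last of these. The counts of all genes called were 1030, 1111 and 1617 in the same order. DESeq2 called 1563 genes between 20 and 14 weeks. Between 26 and 14 weeks limma-voom called 2633, the fit of only the 2 ages 1710, the length correction 424 and the fit without replicates 1 and 5 of 26 weeks 192, and that last fit called 699 between 26 and 20 weeks. Leaving out 1 library gave 652 to 1544 between 26 and 14 weeks (652 without replicate 1, 733 without replicate 2 and 726 without replicate 6 of 26 weeks). Calls in the higher direction made up 74.5%, 34.0% and 21.9% of all calls in the 3 comparisons with the length correction, against 48.3%, 49.6% and 50.2% without, and upper quartile factors gave 62.0% between 26 and 14 weeks. The S100a11 to Anxa1 log2 ratio between 26 and 20 weeks ran from -0.26 to 0.25 without 1 library (sign turned in 5 of 12 fits), and r of S100a8 with ribosomal RNA at 20 weeks from -0.489 to 0.490 (turned in 3 of 6). That r at 26 weeks ran from 0.886 to 0.968, and r of S100a8 with S100a9 at 20 weeks from 0.894 to 0.970. The cause of these moves was not tested. Same-numbered libraries shared little of their deviation (median correlation of deviations 0.0076, 0.050 and -0.010 in the 3 comparisons). Of the 6 libraries of the later age, 0, 3 and 1 correlated best with their own number. The highest same-number correlation was 0.136, between 26 and 14 weeks. These values cannot settle whether the numbers pair the libraries. With a replicate block 962, 946 and 1573 genes were called and S100a11 between 26 and 14 weeks was not (0.85, adjusted p = 0.0709), the only member call it changed. The S100a8 to S100a9 differences of 0.81 and 0.71 had adjusted p = 0.141 in the blocked exact sign-flip test, whose smallest unadjusted p is 0.0312.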
